A study of Mus musculus with 7 samples.

Results

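Genes of the inflammasome and of lytic cell death were examined in hippocampal microglia (dorsal part) of C57BL/6 mice aged 6 to 8 weeks and described by the series as adult males. The 10 genes were taken by symbol from the deposited counts: Nlrp3, Aim2, Pycard, Casp1, Casp4, Gsdmd, Il1b, Il18, Ripk3 and Mlkl. All 10 were found among the 55401 genes of the table, and all 10 passed the filter on low counts that left 19199 genes for testing. Every mouse had received AAV-RAM-Cre, injected into the dorsal dentate gyrus, a virus that expresses Cre recombinase from the activity-dependent RAM promoter and so marks neurons active during an experience. In the EYFP group (4 libraries) the second virus was AAV-Dio-EYFP, and in the ATG7 group (3 libraries) it was AAV-Dio-Atg7-Flag, which gives Flag-tagged Atg7 to the same neurons. The manipulated cells were therefore neurons, while the RNA came from cells enriched with CD11b beads, and the comparison asks how microglial RNA differs when engram neurons overexpress Atg7.

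Inflammasomes are cytosolic complexes in which a sensor, such as NLRP3 or the DNA-binding AIM2, gathers the adaptor ASC (encoded by Pycard) and activates caspase-1. Caspase-1 matures the cytokines IL-1β and IL-18 and cleaves gasdermin D, whose freed fragment forms pores in the plasma membrane, a lytic death called pyroptosis. The product of mouse Casp4, known as caspase-11, binds lipopolysaccharide and cleaves gasdermin D without a canonical inflammasome. Necroptosis is a second lytic route, in which the kinase RIPK3 phosphorylates the pseudokinase MLKL and MLKL disrupts the membrane. These proteins are controlled in large part after transcription, by assembly, cleavage and phosphorylation, and RNA levels measure supply and not activity.

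Total counts lay between 35934210 and 55217119 per library. Values are CPM (library-size-scaled counts) adjusted by trimmed-mean (TMM) factors. A floor of 3 counts corresponded to 0.0543 to 0.0835 CPM before TMM adjustment, for counting error only. Atg7 averaged 35.6 ± 1.68 CPM over the EYFP libraries (SD, n = 4) and 34.9 ± 2.76 CPM over the ATG7 libraries (SD, n = 3), which checks no label because the transgene was directed at neurons. One library went against the male label: Xist was at 939 CPM in EYFP 3 and at 0.151 to 0.574 CPM in the other libraries. The Y-linked gene Ddx3y was detected there too, at 27.6 CPM, against 121 to 169 CPM in the others. Values without EYFP 3 are given below for Nlrp3, Casp4, Il1b, Zbp1 and Il1rl1. The summed CPM of 8 microglial markers was 20490 to 24876 in EYFP and 20259 to 24832 in ATG7, so the labelled cell type was present at similar levels in both groups. Markers of choroid plexus epithelium were also abundant, at 54816 to 72243 summed CPM in EYFP and 46455 to 61152 in ATG7, with 7 of 7 having a log2 fold change below 0 and none passing the test. In bulk libraries of this kind, fewer cells of a type and less RNA per cell cannot be told apart. The labels do not say whether the libraries came from separate mice, so p-values measure only the spread between these libraries.

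No member passed the test between ATG7 and EYFP (edgeR quasi-likelihood test, Benjamini-Hochberg adjustment over all genes, two-sided). The count was 0 of 10, where 0.755% of all genes tested passed, 0.688% as higher and 0.0677% as lower in ATG7. The smallest adjusted p was 0.0853, for Casp4. At an unadjusted p under 0.05 there were 4 members, Casp4, Il1b, Casp1 and Mlkl, all higher in ATG7, where 6.27% of all genes were higher at that level. The DESeq2 Wald test called 2 members, Casp4 and Il1b, where it called 3.61% of the genes it tested, 2.51% as higher. Limma-voom called 0 members, where it called 1.08% of all genes, 0.953% as higher. At an unadjusted p under 0.05 limma-voom had 4 members, against 12.6% of all genes. All 10 members had a log2 fold change above 0, as did 49.2% of all genes. Their median log2 fold change was 0.20, with a range of 0.04 to 0.62, and the median of all genes was 0.00. In 5 members (Casp1, Casp4, Il1b, Ripk3 and Mlkl) every ATG7 library lay above every EYFP library, which 6.33% of all genes did, and no member lay wholly below, as 4.91% of all genes did. These counts describe genes whose list was drawn up with earlier results of the same libraries known.

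**Figure D1:**
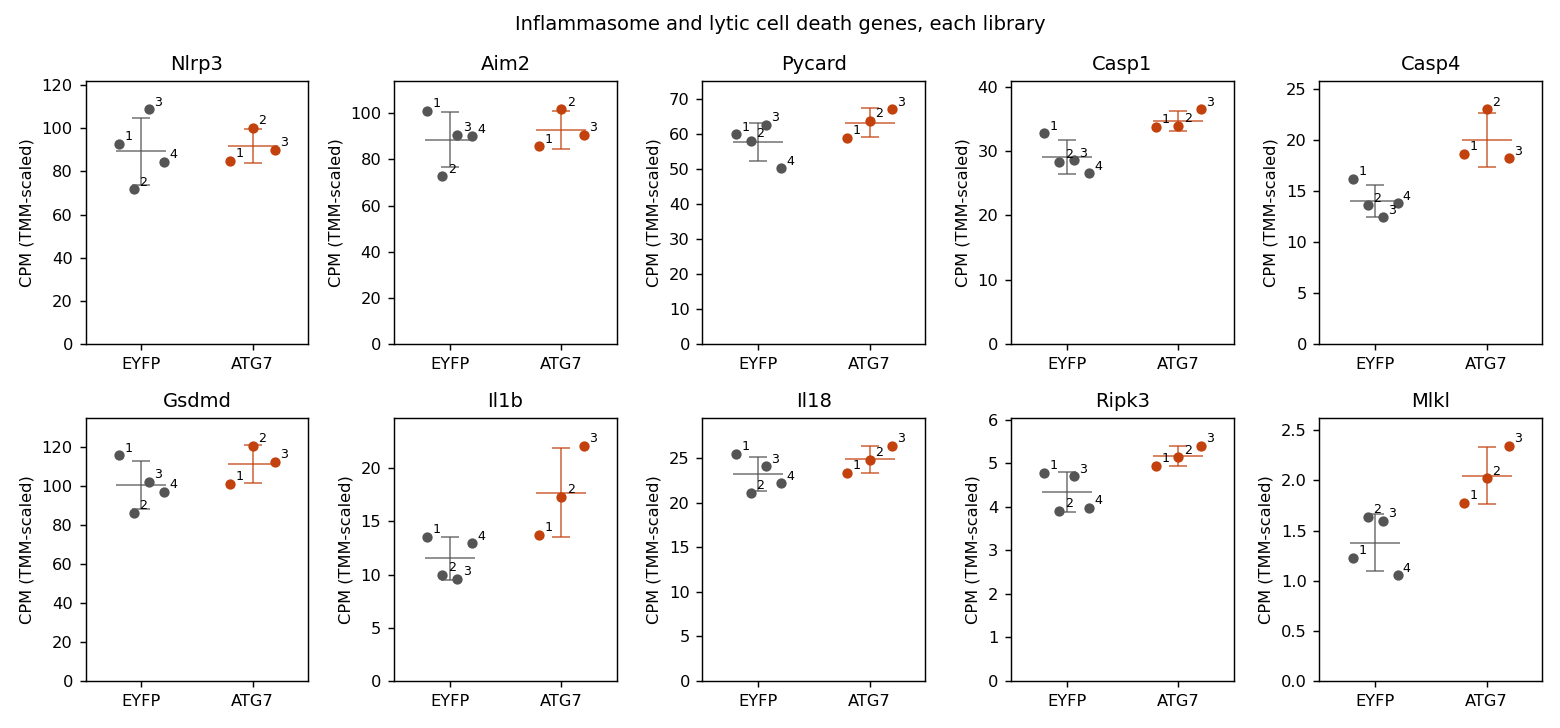
TMM-scaled CPM of each of the 10 genes in every library, with the replicate number beside each point, a horizontal line at the group mean and bars of 1 SD. EYFP has 4 libraries and ATG7 has 3. The groups are separate for Casp1, Casp4, Il1b, Ripk3 and Mlkl and overlap for the other 5 genes.

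The groups overlapped for both sensors. Nlrp3, the sensor of potassium loss and many other disturbances, was at 92.8, 71.8, 109 and 84.3 CPM in EYFP 1 to 4 and at 84.9, 100.1 and 89.9 CPM in ATG7 1 to 3. The ATG7 libraries all lay inside the EYFP range. The log2 fold change was 0.04, standard error (SE) 0.124 (edgeR adjusted p = 0.944), and its 95% interval of -0.24 to 0.31 holds changes between 0.849-fold and 1.24-fold. The value turned on single libraries, at -0.061 without EYFP 2, -0.032 without ATG7 2 and 0.139 without EYFP 3, which holds the upper end of the EYFP range.

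Aim2, the sensor of cytosolic DNA, was at 101, 72.6, 90.5 and 90.0 CPM in EYFP 1 to 4 and at 85.7, 102 and 90.5 CPM in ATG7 1 to 3. EYFP 2 was the lowest library and the others were interleaved. On the log2 scale the estimated difference was 0.07 (SE 0.106; edgeR adjusted p = 0.870; 95% interval -0.17 to 0.30), and it was -0.023 without EYFP 2, -0.0053 without ATG7 2, 0.136 without EYFP 1 and 0.120 without ATG7 1. Aim2 belongs to the PYHIN family and lies on chromosome 1 (173350879 to 173466040, GRCm38) at one end of a cluster of Ifi genes, a neighbourhood looked at after the values were seen. Among all genes tested, 0.688% passed as higher in ATG7 and 0.0677% as lower. Of the 13 other genes tested within 500000 bases of Aim2, 3 passed as higher and none as lower. These were Ifi214, with a log2 fold change of 2.51 (SE 0.317, edgeR adjusted p = 0.00714), Ifi211, at 1.52 (SE 0.243, adjusted p = 0.0244), and Ifi207, at 1.07 (SE 0.178, adjusted p = 0.0299). The 13 genes had a median log2 fold change of 1.39, against 0.07 for Aim2, and the difference between Aim2 and its neighbours was not tested. Reads can be shared among the near-identical Ifi genes, so their single values are uncertain.

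Pycard, which encodes the adaptor ASC, was at 59.9, 58.1, 62.6 and 50.2 CPM in EYFP 1 to 4 and at 58.8, 63.7 and 67.1 CPM in ATG7 1 to 3. ATG7 2 and 3 were the highest libraries, but ATG7 1 lay below EYFP 1 and EYFP 3. The fitted log2 difference was 0.13 (SE 0.0851; edgeR adjusted p = 0.604; 95% interval -0.06 to 0.32), and 0.071 without EYFP 4 or 0.081 without ATG7 3. Pycard shares 485 exon bases with Gm45205 on the other strand, and the strand setting of the counting is not given in the sources used here. Gm45205 itself was at 0.0245 to 0.0665 CPM.

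In both inflammatory caspases the groups were separate. Casp1, the protease of canonical inflammasomes, was at 32.8, 28.3, 28.6 and 26.5 CPM in EYFP 1 to 4 and at 33.8, 33.9 and 36.5 CPM in ATG7 1 to 3. The groups did not overlap, although EYFP 1 lay close to ATG7 1. ATG7 minus EYFP, in log2, was 0.26 (SE 0.0852; edgeR adjusted p = 0.245; exact permutation p = 0.0571, two-sided, over all 35 assignments of the group labels).

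Casp4 was at 16.3, 13.6, 12.5 and 13.8 CPM in EYFP 1 to 4 and at 18.7, 23.1 and 18.3 CPM in ATG7 1 to 3. Again EYFP 1 was the highest EYFP library, and ATG7 2 stood above the other two. Group means were 14.0 ± 1.59 CPM for EYFP (SD, n = 4) against 20.01 ± 2.65 CPM for ATG7 (SD, n = 3), which is 0.51 on the log2 scale (SE 0.117), or 1.43-fold with a 95% interval of 1.19 to 1.71 (edgeR adjusted p = 0.0853; exact permutation p = 0.0286, two-sided, the lowest value that 35 assignments allow). Casp4 passed in some fits and not in others. Its adjusted p was 0.00604 with DESeq2, 0.0169 in edgeR with no filter on low counts and 0.0309 in edgeR without EYFP 1. Casp4 did not pass in any other fit, at 0.0612 with limma-voom to 0.470 in edgeR with the replicate number as a block. In edgeR without EYFP 3 the adjusted p was 0.159, with a log2 fold change of 0.45. Without ATG7 2 it was 0.341, with a log2 fold change of 0.40.

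Casp1 and Casp4 are neighbours on chromosome 9 (5298517 to 5307265 and 5308828 to 5336783, GRCm38, both on the plus strand), followed by Casp12 (5345430 to 5373032), a related caspase. Casp12 was at 4.89, 3.88, 3.81 and 3.61 CPM in EYFP 1 to 4 and at 5.80, 5.55 and 5.25 CPM in ATG7 1 to 3. It too was separate between groups, with EYFP 1 highest in EYFP (log2 fold change 0.45, SE 0.154, edgeR adjusted p = 0.266). The only other gene tested within 500000 bases of Casp4 was Gm7390, at 0.544 ± 0.0905 CPM in the EYFP libraries (SD, n = 4) and 0.876 ± 0.125 CPM in the ATG7 libraries (SD, n = 3), a log2 fold change of 0.69. It was also separate between groups, so that all 4 genes tested in this window were, with ATG7 above, as 6.33% of all genes were. The 3 other genes around Casp4 had a median log2 fold change of 0.45. Windows of the same size gave a larger median around Aim2, at 1.39, and smaller ones around Il1b and Mlkl. Around Il1b, 24 other genes were tested, with a median log2 fold change of 0.05. Of these, 1 passed as higher, where 0.688% of all genes did. Around Mlkl, 19 others had a median of 0.00 and none passed. The windows were not among the comparisons set at the start. The ratio of Casp4 to Casp1 was 0.496, 0.481, 0.436 and 0.521 in EYFP 1 to 4, against 0.554, 0.680 and 0.500 for ATG7 1 to 3, and these ranges overlapped.

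To show the 3 caspase genes that lie side by side, the 250 bases before their RefSeq start sites are shown (GRCm38.p6, plus strand, 5′ to 3′). Capitals mark matches, on either strand, to 1 of 4 motifs: the NF-kB consensus, the interferon-stimulated response element core, the STAT-binding GAS element TTCNNNGAA and the PU.1-IRF composite element. For Casp4, which has a pair of RefSeq starts, the more upstream one was used.
Casp1 (chr9:5298267-5298516): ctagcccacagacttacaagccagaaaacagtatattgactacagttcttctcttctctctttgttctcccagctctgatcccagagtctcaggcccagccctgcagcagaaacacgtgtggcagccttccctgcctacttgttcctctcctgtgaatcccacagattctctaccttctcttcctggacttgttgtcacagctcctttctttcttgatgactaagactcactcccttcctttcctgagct
Casp4 (chr9:5308599-5308848): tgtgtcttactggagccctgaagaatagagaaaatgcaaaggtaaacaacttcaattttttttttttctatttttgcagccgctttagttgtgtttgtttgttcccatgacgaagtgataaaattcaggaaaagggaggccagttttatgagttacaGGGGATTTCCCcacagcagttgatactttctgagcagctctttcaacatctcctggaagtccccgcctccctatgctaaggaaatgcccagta
Casp12 (chr9:5345226-5345475): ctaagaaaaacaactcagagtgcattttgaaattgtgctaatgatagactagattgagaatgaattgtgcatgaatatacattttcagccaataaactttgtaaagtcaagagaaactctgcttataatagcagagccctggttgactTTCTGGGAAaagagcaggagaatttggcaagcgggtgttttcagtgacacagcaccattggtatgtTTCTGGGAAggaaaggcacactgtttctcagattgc

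The 3 windows did not share a motif. Casp4 held 2 overlapping NF-kB matches beginning 93 and 92 bases before the start, Casp12 held 2 GAS matches beginning 102 and 36 bases before it, and Casp1 held no match. The windows of Casp4 and Casp12 end past the GENCODE starts given above. The Casp12 match at 36 bases lies past its GENCODE start of 5345430, and the other matches lie before theirs. Among 32851 RefSeq promoter windows of the same length, 3.90% held the NF-kB consensus, 7.02% the GAS element, 2.98% the interferon-stimulated response element core and 2.30% the PU.1-IRF element. Windows were found for 9 of the 10 members, 11 windows in all, and 3 of the 11 held a match to any of the motifs, against 15.0% of all windows. These were both overlapping Casp4 windows and 1 of the Nlrp3 windows, each with the NF-kB consensus. Casp12 is not a member and is not among the 11. A match is a description of the letters and not a site in use.

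**Figure D2:**
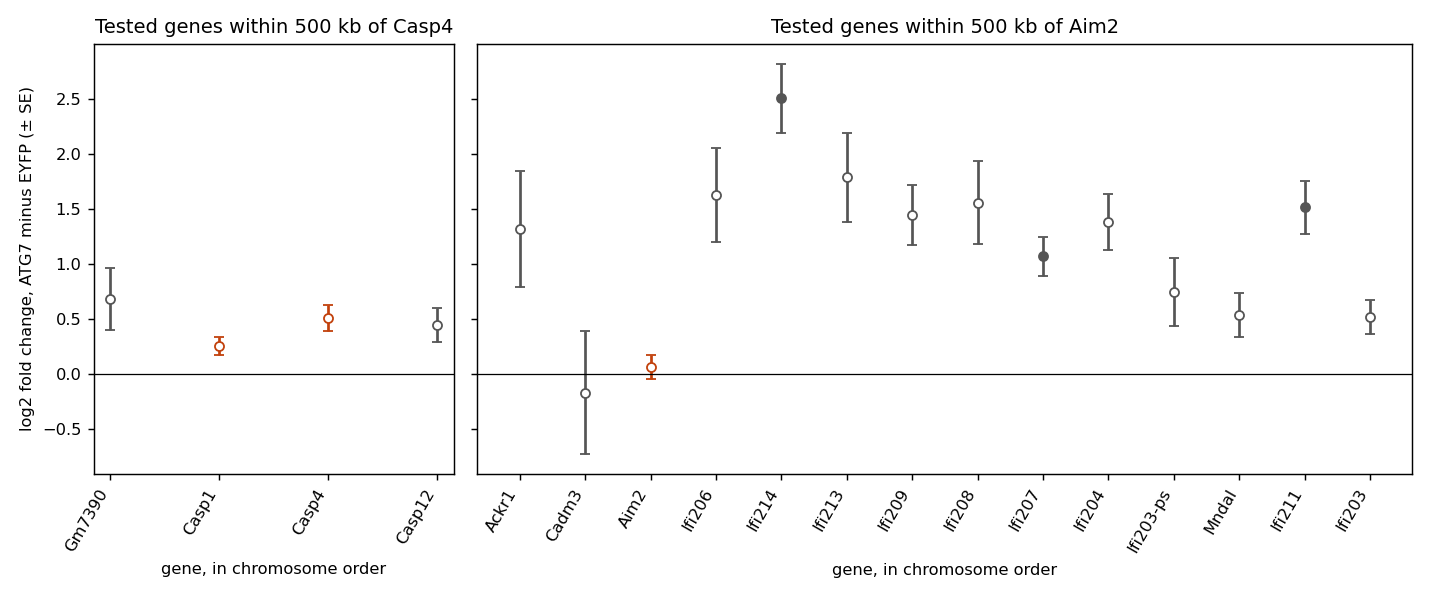
Log2 fold change of ATG7 over EYFP (points, with bars of 1 SE) for the genes tested within 500000 bases of Casp4 (left) and of Aim2 (right), in chromosome order. Members are orange, other genes are grey, and filled points passed the edgeR test. Casp1, Casp4 and Casp12 lie between 0.26 and 0.51, while Aim2, at 0.07, lies below every Ifi gene of its neighbourhood.

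Gsdmd, which encodes the pore-forming gasdermin D (chromosome 15, 75862327 to 75867408), was at 116, 86.1, 102 and 97.1 CPM in EYFP 1 to 4 and at 101, 121 and 112 CPM in ATG7 1 to 3. The groups overlapped, with EYFP 1 second only to ATG7 2. The estimate on the log2 scale was 0.15 (SE 0.101; edgeR adjusted p = 0.620; 95% interval -0.07 to 0.37). It was 0.227 without EYFP 1, 0.080 without EYFP 2 and 0.091 without ATG7 2.

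The cytokine substrates of caspase-1 differed from each other in their values. Il1b, the precursor of IL-1β (chromosome 2, 129364570 to 129371139), was at 13.5, 9.99, 9.62 and 12.9 CPM in EYFP 1 to 4 and at 13.7, 17.3 and 22.1 CPM in ATG7 1 to 3. Every ATG7 library lay above every EYFP library, but ATG7 1 exceeded EYFP 1 only slightly. Means were 11.5 ± 2.00 CPM for EYFP (SD, n = 4) against 17.7 ± 4.199 CPM for ATG7 (SD, n = 3), which is 0.62 on the log2 scale (SE 0.171), or 1.54-fold with a 95% interval of 1.18 to 2.00 (edgeR adjusted p = 0.159; exact permutation p = 0.0286, two-sided). DESeq2 gave an adjusted p of 0.0281 and was the only fit in which Il1b passed. The other fits gave 0.0813 (edgeR with no filter) to 0.609 (edgeR with the replicate number as a block). The log2 fold change was 0.43 without ATG7 3, which had the highest value (edgeR adjusted p = 0.520). It was 0.54 without EYFP 3 (edgeR adjusted p = 0.244). The antisense transcript Il1bos, which shares 25 exon bases with Il1b, was at 0.525 to 1.48 CPM.

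Il18 (chromosome 9, 50554827 to 50581840) was at 25.5, 21.2, 24.1 and 22.2 CPM in EYFP 1 to 4 and at 23.4, 24.9 and 26.4 CPM in ATG7 1 to 3. The libraries were interleaved across a narrow range. On the log2 scale the estimated difference was 0.10 (SE 0.0891; edgeR adjusted p = 0.731; 95% interval -0.10 to 0.30), and it was 0.051 without EYFP 2 and 0.049 without ATG7 3. The ratio of Il1b to Nlrp3 sets a caspase-1 substrate against an inflammasome sensor. It was 0.146, 0.139, 0.0885 and 0.153 in EYFP 1 to 4, against 0.162, 0.173 and 0.246 for ATG7 1 to 3. All 3 ATG7 ratios were above all EYFP ratios, the only 1 of 6 ratios computed for which this held. The ratio of Il1b to Il1a was 0.204 to 0.254 in EYFP and 0.243 to 0.329 in ATG7, and that of Il18 to Il18bp was 2.26 to 3.82 and 2.30 to 2.51.

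The necroptosis pair was expressed at a low level. Ripk3, the kinase (chromosome 14, 55784995 to 55788865), was at 4.78, 3.90, 4.70 and 3.98 CPM in EYFP 1 to 4 and at 4.95, 5.13 and 5.40 CPM in ATG7 1 to 3. The groups were separate by a small margin. The fitted log2 difference was 0.25 (SE 0.147; edgeR adjusted p = 0.558; 95% interval -0.07 to 0.57; exact permutation p = 0.0857, two-sided).

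Mlkl, which encodes the membrane-disrupting effector (chromosome 8, 111311797 to 111338177), was at 1.23, 1.64, 1.60 and 1.06 CPM in EYFP 1 to 4 and at 1.77, 2.02 and 2.34 CPM in ATG7 1 to 3. These values rest on 43 to 111 counts per library. The groups did not overlap. The estimate on the log2 scale was 0.57 (SE 0.231), or 1.48-fold with a 95% interval of 1.04 to 2.10 (edgeR adjusted p = 0.355; exact permutation p = 0.0286, two-sided). Mlkl stood at 0.257, 0.419, 0.340 and 0.265 of the Ripk3 CPM in EYFP 1 to 4 and at 0.359, 0.394 and 0.434 in ATG7 1 to 3. The ranges of this ratio overlapped.

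Levels were compared between genes per kilobase of merged exon, over all 7 libraries. Gsdmd was highest, at 44.2 ± 5.02 CPM per kilobase (SD, n = 7), and its range was separate from that of every other member. Aim2 (25.8 ± 2.80), Il18 (23.2 ± 1.79), Nlrp3 (22.3 ± 2.94) and Casp1 (21.02 ± 2.45) followed, and each overlapped its neighbour in this order. Pycard (15.8 ± 1.41) lay below them. Il1b (7.43 ± 2.27) and Casp4 (4.47 ± 1.00) overlapped in range, although Il1b was the higher in all 7 libraries. Ripk3 (2.05 ± 0.246) and Mlkl (0.723 ± 0.191) were lowest and separate from each other. Merged exons include those of rare isoforms, which lowers the value of a gene with long annotated variants. The 5 genes whose groups did not overlap included 4 of the lowest levels, those of Il1b, Casp4, Ripk3 and Mlkl.

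**Figure D3:**
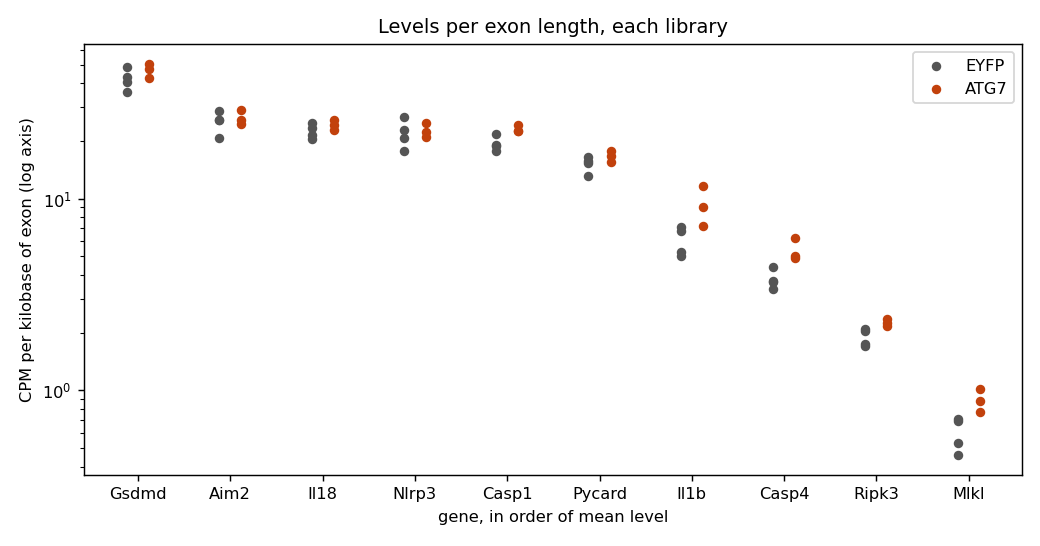
CPM per kilobase of merged exon (log axis) for each gene in each library, ordered by the mean over all 7 libraries. EYFP libraries are grey and ATG7 libraries orange. Mean levels run from 44.2 for Gsdmd to 0.723 for Mlkl, and the 4 genes after Gsdmd overlap their neighbours in the order.

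Across the members, ATG7 3 was the highest library for 6 genes, ATG7 2 for 3 and EYFP 3 for 1. EYFP 2 was the lowest for 5, EYFP 4 for 3 and EYFP 3 for 2. When each member was set against the summed CPM of the 8 microglial markers in the same library, an alternative chosen after seeing the data, 4 members still separated the groups, Casp4, Il1b, Ripk3 and Mlkl, where 4.04% of all genes had every ATG7 library above EYFP on that scale. Casp1 then overlapped, at 1.15 to 1.43 per 1000 CPM of markers in EYFP and 1.39 to 1.67 in ATG7. The log2 difference on this scale was 0.47 for Casp4, 0.57 for Il1b, 0.54 for Mlkl and 0.21 for Ripk3.

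Markers of other immune cells were examined because neutrophils, monocytes and lymphocytes also express inflammasome genes. Neutrophil markers, 10 in number, summed to 80.9, 81.5, 109.8 and 47.4 CPM in EYFP 1 to 4 and to 26.4, 33.0 and 159 CPM in ATG7 1 to 3. ATG7 3 was the highest library and ATG7 1 and 2 the lowest. Monocyte markers summed to 123.0 to 145 CPM in EYFP and 133 to 164 CPM in ATG7, with 3 of 6 having a log2 fold change above 0 and none passing. Most of this sum was F13a1, at 90.0 to 114 CPM, a gene also listed as a marker of border macrophages. The 6 border macrophage markers, F13a1 included, summed to 515 to 632 CPM in EYFP and 551 to 622 CPM in ATG7. Of these 6, 3 had a log2 fold change above 0 and none passed. Plac8 was separate between groups, at 1.80 to 4.25 CPM in EYFP and 4.70 to 11.4 CPM in ATG7 (log2 fold change 1.45, edgeR adjusted p = 0.128). Ly6c2 was at 1.55 to 4.40 CPM in EYFP and 3.02 to 13.5 CPM in ATG7 (log2 fold change 1.47, edgeR adjusted p = 0.330). The rest of the monocyte list did not move in this way. F13a1 had a log2 fold change of 0.05, and Ccr2, Chil3 and Vcan were below 0, at -0.03, -0.16 and -0.13, all with overlapping groups. T and NK cell markers moved with the group: the 8 genes summed to 13.6, 11.6, 8.80 and 10.4 CPM in EYFP 1 to 4 and to 13.8, 15.7 and 27.7 CPM in ATG7 1 to 3. Of these, 7 of 8 had a log2 fold change above 0 and none passed, and Cd3e, a defining T cell gene, lay at 0.177 to 0.540 CPM in EYFP and 0.624 to 1.66 CPM in ATG7. The part of these cells in the values of Casp1, Casp4, Il1b, Ripk3 and Mlkl was not tested. ATG7 3 was the highest library for the summed markers of T and NK cells, neutrophils, monocytes and endothelium. It was also the highest for 6 of the 10 members, among them Casp1, Il1b, Ripk3 and Mlkl. For Casp4 it was the lowest ATG7 library. Whether these orders are linked was not tested.

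**Figure D4:**
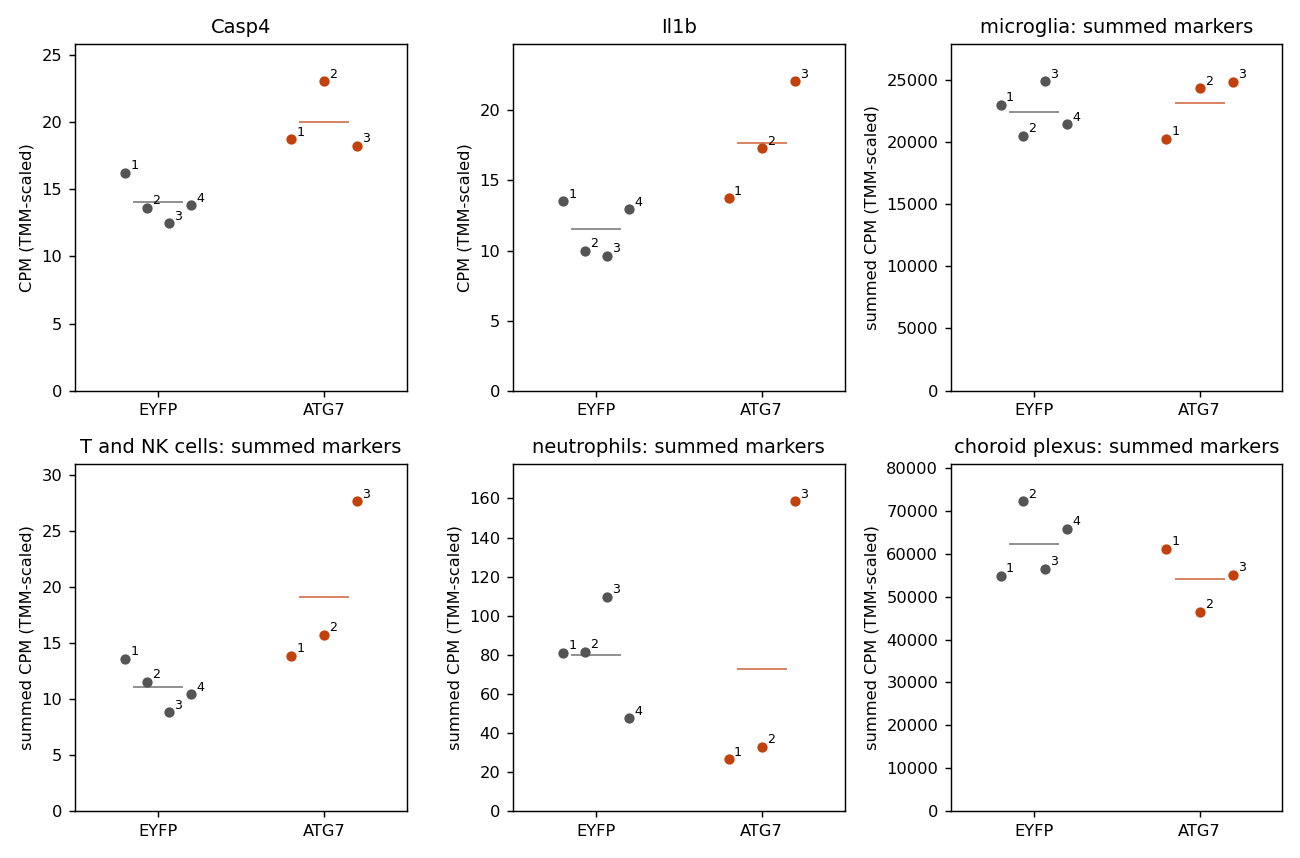
TMM-scaled CPM of Casp4 and Il1b beside the summed CPM of marker lists for microglia, T and NK cells, neutrophils and choroid plexus, in every library, with the replicate number at each point and a line at the group mean. The 3 ATG7 libraries are above EYFP for Casp4, Il1b and the T and NK markers. For neutrophil markers ATG7 1 and 2 are the lowest and ATG7 3 the highest.

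Other genes of these pathways were taken from 4 lists written by role, with 46 genes, of which 41 passed the filter on low counts. None passed the edgeR test, where 0.755% of all genes did. At an unadjusted p under 0.05, 12 were higher and 2 lower, where 6.27% of all genes were higher and 5.71% lower. Among the 41, 32 had a log2 fold change above 0, as did 49.2% of all genes. In 8 the ATG7 libraries were all above EYFP and in 1 all below, against 6.33% and 4.91% of all genes. Their median log2 fold change was 0.16, against 0.00 for all genes. DESeq2 called 4 of the 41, Zbp1, Il1a and Il1rn as higher and Il1rl1 as lower, where it called 3.61% of its genes, and limma-voom called Zbp1 alone, where it called 1.08%. The genes not tested were Nlrp6, Nlrp10, Nlrp12, Gsdma and Gsdmc, and the last 2 had 0 counts in every library.

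In the list of sensors and activators, 8 of 11 tested genes had a log2 fold change above 0, against 49.2% of all genes. The groups overlapped in all 11. The smallest p belonged to Naip2 and Naip5, which encode sensors of bacterial flagellin and secretion systems that act through NLRC4. Naip2 was at 88.9 ± 8.47 CPM over the EYFP libraries (SD, n = 4) and 109 ± 13.8 CPM over the ATG7 libraries (SD, n = 3), with a log2 fold change of 0.30 (SE 0.101, edgeR adjusted p = 0.264). Naip5 was at 98.7 ± 15.5 and 113 ± 10.7 CPM, a log2 fold change of 0.20 (SE 0.117, adjusted p = 0.566). Naip2, Naip5 and Naip6 are close copies that can share reads, and their sum was 251 ± 41.1 CPM over the EYFP libraries (SD, n = 4) and 298 ± 31.3 CPM over the ATG7 libraries (SD, n = 3), with overlapping groups.

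Among other caspases, gasdermins and the membrane rupture gene Ninj1, 4 of 6 tested genes had a log2 fold change above 0, against 49.2% of all genes. Their median was 0.04. Casp12, described above, was the only one with separate groups.

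The list of other necroptosis genes held the largest fold of any pathway gene tested. Zbp1, which senses Z-form nucleic acids, engages RIPK3 and is inducible by interferon, was at 16.9, 11.4, 4.97 and 10.7 CPM in EYFP 1 to 4 and at 30.2, 44.1 and 40.2 CPM in ATG7 1 to 3. The groups were far apart, and EYFP 3 was the lowest library. On the log2 scale the estimated difference was 1.80 (SE 0.362), or 3.49-fold with a 95% interval of 1.92 to 6.32 (edgeR adjusted p = 0.107; exact permutation p = 0.0286, two-sided). The adjusted p of Zbp1 was 0.00602 in edgeR without EYFP 3, with a log2 fold change of 1.55, and 0.0471 without EYFP 1. It was 0.00186 with DESeq2 and 0.0472 with limma-voom. It did not pass in edgeR with no filter, at 0.242, nor without any of the other 5 libraries, at 0.137 to 0.341. Birc3, which encodes a ubiquitin ligase that restrains RIPK1 signalling, was at 36.7 ± 2.82 CPM over the EYFP libraries (SD, n = 4) against 45.0 ± 5.22 CPM over the ATG7 libraries (SD, n = 3), or 0.30 on the log2 scale (SE 0.0936, edgeR adjusted p = 0.221). In all, 11 of these 12 genes had a log2 fold change above 0, and 3 had every ATG7 library above EYFP, against 49.2% and 6.33% of all genes.

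Among other interleukin-1 and interleukin-18 genes, 9 of 12 had a log2 fold change above 0, against 49.2% of all genes. Il1rl1, the receptor for IL-33, was at 11.8, 12.3, 15.1 and 13.4 CPM in EYFP 1 to 4 and at 8.64, 10.6 and 8.19 CPM in ATG7 1 to 3. All ATG7 libraries lay below all EYFP libraries. ATG7 minus EYFP, in log2, was -0.52 (SE 0.130; edgeR adjusted p = 0.120; DESeq2 adjusted p = 0.0108). Without EYFP 3, the highest library for Il1rl1, it was -0.45 (edgeR adjusted p = 0.204). Il1a, the sister cytokine of Il1b, was at 54.4, 41.9, 47.1 and 51.0 CPM in EYFP 1 to 4 and at 56.3, 65.0 and 67.1 CPM in ATG7 1 to 3.

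The groups were separate for Il1a, with a log2 fold change of 0.37 (SE 0.0965, edgeR adjusted p = 0.131, DESeq2 adjusted p = 0.0322, edgeR with no filter 0.0319). Its exons share 222 bases with Gm14023 on the other strand, which was at 1.55 to 6.02 CPM. Il1rn, the antagonist of the IL-1 receptor, was picked out after its values were seen because it opposes Il1b. It was at 2.84, 3.14, 3.99 and 2.23 CPM in EYFP 1 to 4 and at 3.47, 7.48 and 6.34 CPM in ATG7 1 to 3, with ATG7 1 inside the EYFP range. The ratio of Il1b to Il1rn was 4.04 ± 1.52 for the EYFP libraries (SD, n = 4) and 3.25 ± 0.844 for the ATG7 libraries (SD, n = 3), and the ratios overlapped.

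**Figure D5:**
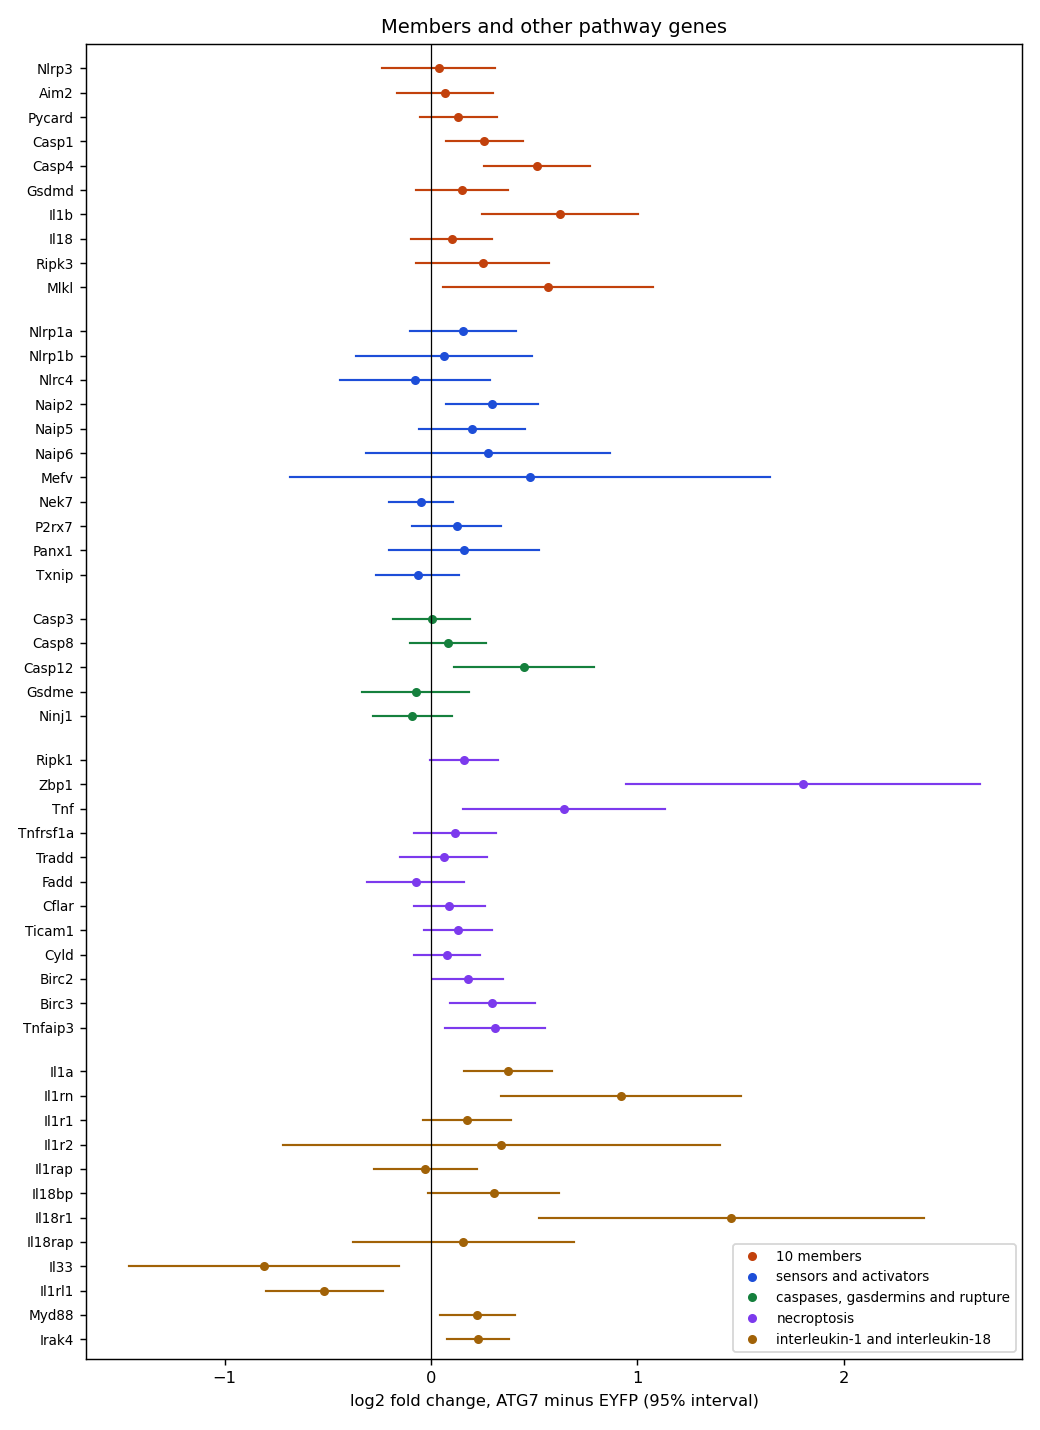
Log2 fold change of ATG7 over EYFP (points) with its 95% interval (lines) for the 10 members and other pathway genes tested, coloured by list, from the edgeR fit of all genes. Intervals are for single genes and are not adjusted for the number tested. Zbp1, at 1.80, is farthest to the right, Il33 and Il1rl1 lie to the left of 0, and no gene passed after adjustment.

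Casp4, the member with the smallest p, was compared with 11779 other genes of at least 5 CPM on average for likeness of pattern. The measure was the mean absolute difference of log2 CPM over the 7 libraries after each gene was centred on its own mean. The nearest genes were Eif2ak2, at 0.0482, Adap1, at 0.0648, and Tbc1d8, at 0.0671, where the median gene was at 0.269. Eif2ak2, which encodes the double-stranded RNA-activated kinase PKR, was at 70.5, 60.1, 54.1 and 57.4 CPM in EYFP 1 to 4 and at 85.9, 99.1 and 86.9 CPM in ATG7 1 to 3. Like Casp4, it had EYFP 1 as the highest EYFP library and ATG7 2 as the highest of all. Its log2 fold change was 0.58 (SE 0.0945, edgeR adjusted p = 0.0206), close to that of Casp4, and it passed the test. Tbc1d8 passed as well, at 0.56 (SE 0.0907, adjusted p = 0.0206), and Adap1 narrowly missed the threshold, at 0.55 (SE 0.109, adjusted p = 0.05001). Likeness was measured over the same 7 libraries and includes the difference between the groups.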

How the data were processed

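The authors deposited raw counts per Ensembl gene, 1 column per library. The submitters' processing notes name fastp 0.20.1, HISAT2 2.0.5, featureCounts and the builds mm10 and GRCm38. The strand setting, the handling of shared reads and the annotation release are not given in the sources used here. Columns were matched to libraries by name. Symbols and coordinates came from GENCODE M21 (GRCm38), which matched 55141 of 55401 identifiers, and promoter sequences from RefSeq (GRCm38.p6).

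ATG7 was compared with EYFP over all 7 libraries by the quasi-likelihood test of edgeR 4.0.16 (R 4.3.3) with TMM factors, filterByExpr and robust dispersion, with a threshold of 0.05 on the Benjamini-Hochberg adjusted p over all genes. An SE is the size of the log2 fold change over the root of F. The code was tested on simulated data. The alternatives were other scalings, other filters, DESeq2 1.42.0, limma-voom (limma 3.58.1), a replicate block, each library left out, and microglial marker scaling. Single genes were also compared by exact permutation over all 35 label assignments. For the 5 members with overlapping groups, the exact permutation p was 0.171 (Pycard) to 0.857 (Nlrp3). The permutation p rests on the same values as the separation of the groups and is not separate support for it.

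The members and lists were chosen with earlier results of these data known. The text names every member, the 2 genes with the smallest p in each role list that had no passing gene, and the 3 genes most like Casp4. A gene chosen by this rule is not reported here. Other genes were named after their values were seen. No pair of libraries of a group agreed within sampling noise (chi-square per degree of freedom 19.2 to 41.3).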

Additional observations from a re-analysis of the deposited data

How the results depend on the processing

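Over the 15 alternatives set at the start, 142 member values kept their direction and call, 4 gained a call and 4 reversed. Scaling by microglial markers, added later and without a test, kept the direction of all 10 members. The reversals were Nlrp3 (-0.061 and -0.032) and Aim2 (-0.023 and -0.0053), without EYFP 2 and without ATG7 2, over ranges of -0.061 to 0.139 and -0.023 to 0.136 when each library was left out. The number of members called was 2 with DESeq2 and 1 with no filter on low counts, and 0 to 1 when a library was left out. For other pathway genes it was 4 with DESeq2, 1 with limma-voom, 1 with no filter and 0 to 1 when a library was left out. For all genes it was 145 (91.0% higher), 297 with no filter (78.8% higher), 585 with DESeq2 (69.6% higher) and 28 to 277 when a library was left out. It was 277 without EYFP 1 and 94 without EYFP 2, and it was 30 without EYFP 4 or ATG7 3 and 28 without ATG7 2. With the replicate number as a block, edgeR called 0 members (2 at an unadjusted p under 0.05) and 0 genes in all (1256 at that level). Deviations from the group mean had correlations of -0.0609, -0.182 and 0.0664 between same-numbered libraries and of -0.145 to 0.215 between the other pairs. With so few libraries these values cannot decide whether same-numbered libraries share a batch, which was not tested. The member values were 0.51 for Casp4 and 0.67 for Il1b under the block. The log2 fold change of Il1b ranged from 0.43 to 0.78 and that of Casp1 from 0.21 to 0.32. The causes of these shifts were not tested. Depth limits mainly Mlkl, counted 43 to 111 times per library.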
